A study of Bos taurus with 15 samples.

Results

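The 8 gene names CLU, TF, RBP4, CTSL, TFPI2, DHH, AQP8 and BEX2 define the Sertoli cell secreted and transport proteins described here. CLU, TF and RBP4 are proteins of blood plasma and tubule fluid, CTSL is a protease, TFPI2 a protease inhibitor, DHH a signalling protein, AQP8 a water channel and BEX2 a small adaptor. They were chosen by name, as genes of 1 cell type and 1 kind of task, and looked up among the 21475 probes of a bovine array by gene name, gene number, accession and description. Of the 8 members, 7 had a probe and 10 probes were found in all, against 15684 genes named on the array and 13324 genes that could be tested. No probe was named for BEX2. Testis tissue from 15 cattle was measured, with 1 array per animal: 7 controls without treatment and 8 animals that received oral prednisolone, a synthetic glucocorticoid used against inflammation, in a dose of 30 mg a day for each animal over 35 days. The tissue was whole testis taken at slaughter, and the labels give no age or breed.

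Sertoli cells line the seminiferous tubule, nurse the germ cells and close the tubule off from blood with tight junctions. Because blood proteins cannot pass that barrier, Sertoli cells make their own versions of carriers such as transferrin, which brings iron to the germ cells, and retinol-binding protein, which carries vitamin A. They also secrete proteases and inhibitors that remodel the tubule wall and the junctions as germ cells move inward, and they send desert hedgehog to the Leydig and peritubular cells outside the tubule.

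The probe names needed reading against a current gene table. The array has a probe named CTSL whose accession belongs to CTSV, a close relative of cathepsin L, in the bovine gene table used here, and the gene now called CTSL is read by another probe. A second probe described as tissue factor pathway inhibitor 2 belongs to a different gene, LOC618696, whose nearest named neighbours in that table are SPINT3 and TKDP1, both genes of Kunitz-domain proteins. A second probe described as clusterin carries the gene number of LOC513351, which is not in the table used here. CTSL, CTSV, TFPI2, LOC618696, CLU and LOC513351 are therefore given apart. The closest probe to BEX2 is one described as BEX1, whose bovine gene carries both names among its older symbols. It is given for information and was not counted as a member.

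Levels are log2 processed signal relative to the 75th percentile of the same array, so that 0 is the brightness below which 75% of the probes lie. Levels of different probes cannot be set against each other. The array labelled prednisolone 30 stood apart: 36.5% of its probes were well above background, against 82.2% to 89.9% on the other 14, its 75th percentile of signal was 49.8 against 1220 to 2780, and its levels correlated with the other arrays at 0.70 to 0.74, against 0.96 to 0.99 among those. Its scanner values did not track the value the authors deposited for the same animal (gene-centred r of 0.01, against 0.85 to 0.96 for the others). On the scanner file 4 of the 10 member probes of prednisolone 30 lay within the range of the 13 animals left when control 17 is also set aside, and among the authors' deposited values 9 of 10 did. Member differences are therefore given with and without it. Control 17 also differed from the rest: 19.5% of the 13324 genes were highest and 26.6% lowest in it among 14 animals. Of 16 markers that define Sertoli cells, 15 could be tested, and all 16 except GDNF were well above background on each of the 14 arrays.

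No member passed the test between the groups. Of the 9 member probes that could be tested, 0 passed an adjusted p of 0.05 in limma with Benjamini-Hochberg adjustment over all probes, and 0% of all genes did. At an unadjusted p under 0.05, 1 of the 9 passed, LOC618696, against 350 or 2.63% of all genes (1.6% higher and 1.03% lower in prednisolone). Of the 7 named genes tested (CLU, TF, RBP4, CTSL, CTSV, DHH and AQP8), 1 was higher and 6 were lower in the treated group by any amount, with a median difference of -0.16, against 49.8% higher and a median of -0.0013 over all genes. CLU, RBP4, CTSV and DHH each had their lowest level in prednisolone 30, and without it 2 were higher and 5 lower with a median of -0.080. P-values here measure the spread between these animals, each with 1 array. In bulk tissue fewer cells of a type and less RNA per cell cannot be told apart.

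**Figure D1:**
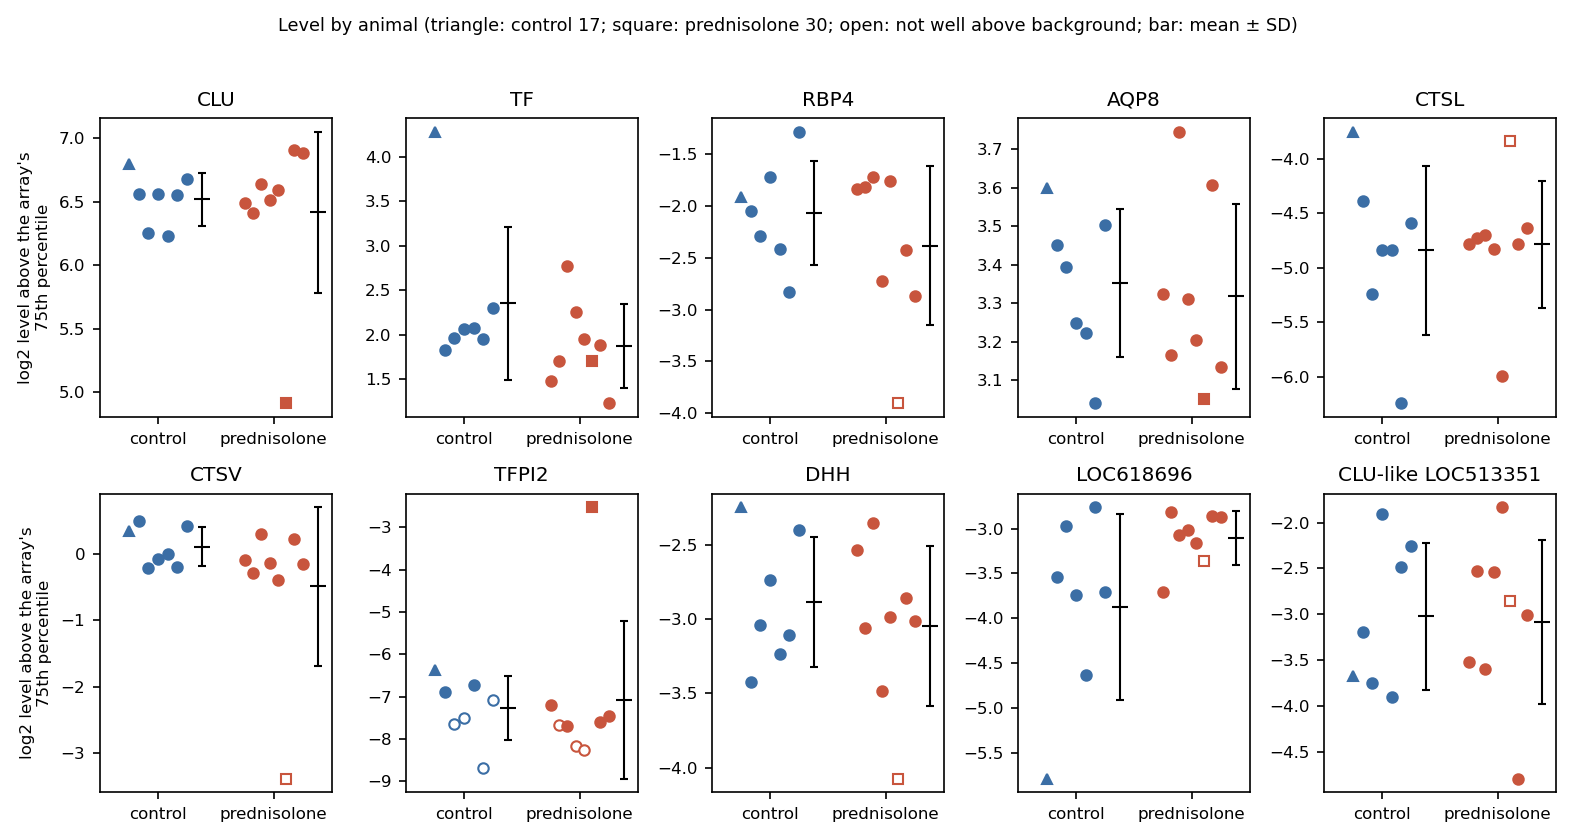
Level of each probe in each animal (vertical axis, log2 level relative to the array's 75th percentile, with its own scale per panel), for 7 controls in blue and 8 prednisolone animals in red, with mean ± SD beside each group. Control 17 is the triangle and prednisolone 30 the square, and open symbols were not well above background. The groups overlap in every panel, TF stands at 4.28 in control 17, and prednisolone 30 lies far from its group for CLU, CTSV and TFPI2.

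Transferrin, TF, gave the widest spread among the carriers, and 1 control animal made most of it. In the controls TF ran from 1.83 through a median of 2.06 to 4.28, and in the treated animals from 1.23 through 1.79 to 2.77. The 4.28 belonged to control 17, while the other 6 controls lay close together at 2.03 ± 0.16 (SD, n = 6), so control 17 was 4.75-fold above their mean. The group means were 2.35 ± 0.86 (SD, n = 7) and 1.87 ± 0.47 (SD, n = 8), a difference of -0.48 (SE 0.33, limma adjusted p = 0.885, exact permutation p = 0.197). Of the 8 treated animals, 7 lay below the control mean. Without prednisolone 30 the difference was -0.46. Without control 17 the difference was -0.16, and the exact permutation p was 0.453. Within the 1 scan day that held both groups it was -1.03, and -0.24 there without control 17 and prednisolone 30. That day held controls 17, 18 and 23 and prednisolone 25, 26 and 29 to 32, so the -0.24 rests on controls 18 and 23. The other controls, and prednisolone 27 and 28, were scanned on days that held 1 group only. Setting control 17 aside thus moved the TF difference by more than any other single animal did.

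Markers of several other cell types were also high in control 17. The mean of its 6 peritubular myoid and smooth muscle markers was 1.47 above their average, against -0.47 to 0.36 in the other 13 animals, and all 6 genes were highest in it. Markers of the rete testis, efferent duct and epididymis, the epithelial ducts that leave the testis, averaged 1.20 against -0.29 to 0.17, with 4 of 8 genes highest in it. Endothelial markers averaged 0.82 against -0.30 to 0.21, with 5 of 7 highest. Macrophage markers averaged 0.32 against -0.27 to 0.24, with 3 of 6 highest and 2 lowest. Spermatid markers averaged -0.75 against -0.28 to 0.43, with 6 of 8 lowest in it. Its Sertoli marker mean, 0.12, lay inside the range of the others, -0.38 to 0.54. The part of these cells in its TF level was not tested.

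Retinol-binding protein, RBP4, differed little between the groups but a good deal between animals. Control levels ran from -2.83 through -2.05 to -1.28, and treated levels from -3.91 through -2.13 to -1.72. The lowest value was prednisolone 30, where the probe was not well above background, and the ranges overlapped with or without it. The difference was -0.31 (SE 0.32, limma adjusted p = 0.885, exact permutation p = 0.396), and -0.093 without prednisolone 30.

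Clusterin, CLU, a secreted chaperone that Sertoli cells release into the tubule fluid, varied little at this scaling apart from 1 array. It ran from 6.23 through 6.56 to 6.80 in the controls and from 4.91 through 6.55 to 6.91 in the treated animals. The 4.91 was prednisolone 30, and the next lowest treated animal stood at 6.41. In the authors' deposited table, on its own log2 scale, CLU varied more in the controls. It ran there from 17.10 to 18.17 (control 17), and in the treated animals from 17.03 (prednisolone 30) to 17.93. With all animals the difference was -0.10 (SE 0.24, limma adjusted p = 0.930, exact permutation p = 0.873). Without prednisolone 30 it turned to 0.11, with group means of 6.52 ± 0.21 (SD, n = 7) and 6.63 ± 0.19 (SD, n = 7) and an exact permutation p of 0.312. The probe of LOC513351 did not follow CLU across the 14 animals (r = -0.10, a description), and its levels ran from -3.90 to -1.91 in the controls and -4.80 to -1.83 in the treated animals.

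The water channel AQP8, which passes water across cell membranes and is found in Sertoli cells, did not separate the groups. Control levels ran from 3.04 through 3.39 to 3.60 and treated levels from 3.05 through 3.26 to 3.75. The difference was -0.03, with a 95% confidence interval of -0.33 to 0.27 (limma adjusted p = 0.957, exact permutation p = 0.767), and 0.0041 without prednisolone 30. Its SE of 0.14 was the smallest of the 9 member probes tested.

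Of the cathepsins, lysosomal cysteine proteases that Sertoli cells also secrete, neither probe separated the groups. CTSL ran from -6.24 through -4.84 to -3.75 in the controls and from -5.99 through -4.76 to -3.84 in the treated animals. The lowest animal of each group, control 23 and prednisolone 29, shared a slide, and prednisolone 30, the third array of that slide, was the highest of its group but not well above background. The CTSL difference was 0.055 (SE 0.33, limma adjusted p = 0.969, exact permutation p = 0.866), but -0.080 without prednisolone 30 and -0.44 with quantile scaling. CTSV, read by the probe the array calls CTSL, ran from -0.21 through -0.00 to 0.49 in the controls and from -3.39 through -0.14 to 0.30 in the treated animals. Its difference was -0.60 (SE 0.42, limma adjusted p = 0.885, exact permutation p = 0.161), and -0.19 without prednisolone 30, whose CTSV was at -3.39 and not well above background.

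TFPI2, a Kunitz-type inhibitor of plasmin and related serine proteases, was at the edge of detection. Its own probe was well above background in 3 of 7 controls and 5 of 8 treated animals, too few for the test across all probes. Control levels ran from -8.67 through -7.08 to -6.37, and treated levels from -8.26 through -7.64 to -2.52, the last being prednisolone 30. The difference was 0.20 with all animals (exact permutation p = 0.932) and -0.45 without prednisolone 30 (exact permutation p = 0.179), where 6 of 7 treated animals lay below the control mean.

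LOC618696, the gene that the array describes as TFPI2, gave the largest difference among the 9 member probes tested. Control levels ran from -5.79 through -3.71 to -2.76, and treated levels from -3.70 through -3.05 to -2.82. All 8 treated animals lay above the control mean, although the highest animal of all was control 23. In prednisolone 30 the probe was not well above background. With control 17 left out of the control mean, 7 treated animals lay above it and 1 below. The means were -3.88 ± 1.04 (SD, n = 7) and -3.11 ± 0.30 (SD, n = 8), a difference of 0.77 (SE 0.35), a ratio of 1.70. Its unadjusted p in limma was 0.0442 and its exact permutation p was 0.0462, but its adjusted p was 0.885, so the difference did not pass the test. Without prednisolone 30 it was 0.80 (exact permutation p = 0.0583). The lowest value, -5.79, was control 17. Leaving it out gave a difference of 0.45 (exact permutation p = 0.106). Within the scan day that held both groups it was 0.90, and 0.067 there without control 17 and prednisolone 30. The 0.067 rests on controls 18 and 23. LOC618696 ran opposite to TFPI2 across the 14 animals (r = -0.79, a description).

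Desert hedgehog, DHH, the ligand among the members, did not separate the groups. It ran from -3.43 through -3.04 to -2.25 in the controls and from -4.07 through -3.00 to -2.36 in the treated animals. The lowest value was prednisolone 30, not well above background, and control 17 was the highest. The difference was -0.16 (SE 0.25, limma adjusted p = 0.896, exact permutation p = 0.547), and -0.014 without prednisolone 30, but 0.11 with another background correction (normexp). The BEX1 probe was at 0.11 ± 0.36 (SD, n = 7) in the controls and -0.18 ± 0.80 (SD, n = 8) in the treated animals, a difference of -0.29 (limma adjusted p = 0.885), and -0.065 without prednisolone 30.

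**Figure D2:**
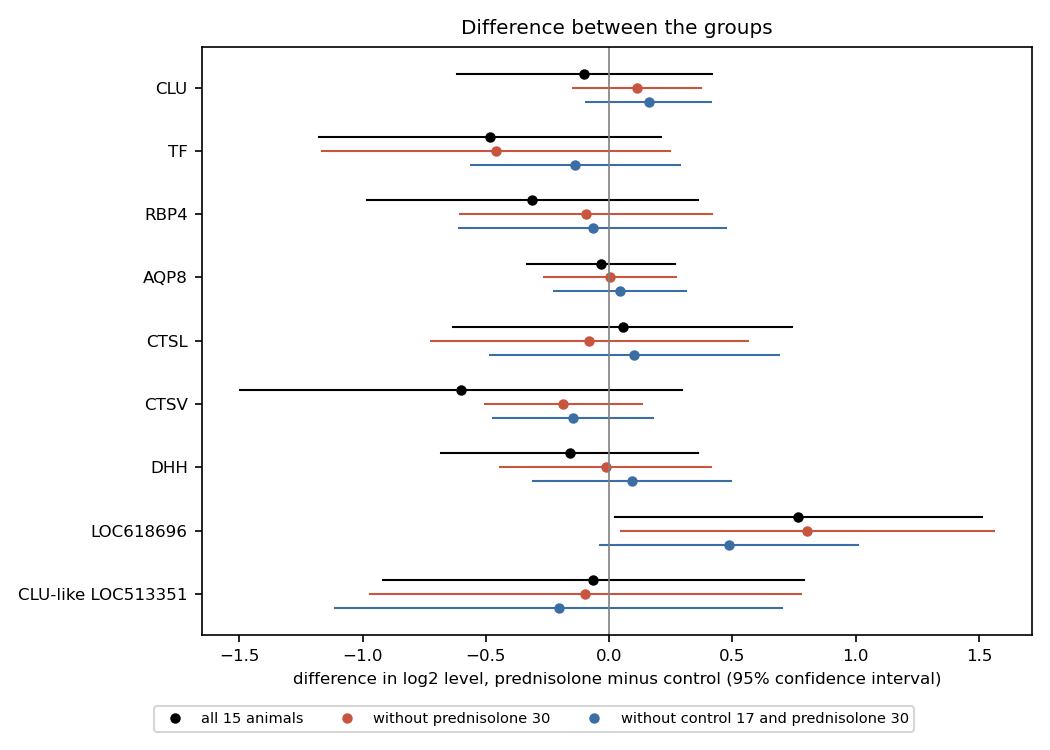
Difference in log2 level, prednisolone minus control (horizontal axis), for each tested probe, with its 95% confidence interval, over all 15 animals in black, without prednisolone 30 in red and without control 17 and prednisolone 30 in blue. The intervals cross 0 for all but LOC618696, whose interval of 0.02 to 1.51 over all animals reaches below 0 once both animals are left out (-0.04 to 1.01).

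At this scaling the members differed from each other in how much animals of 1 group varied. Over 14 animals the SD within groups was 0.20 for CLU and 0.21 for AQP8, at the 13.9 and 17.2 percentiles of the tested probes. It was 0.28 for CTSV and 0.40 for DHH. It rose to 0.50 for RBP4, 0.64 for CTSL, 0.71 for TF and 0.76 for LOC618696, at the 85.6, 94.4, 96.2 and 97.2 percentiles, and to 0.89 for LOC513351, at the 98.5 percentile. The 2 spots of a probe within 1 array differed with an SD of 0.044 for CLU and 0.12 for TF, but of 0.38 for RBP4 and 0.39 for CTSL. For TF the spread between animals was thus well above that between spots, and without control 17 its SD was 0.39. That of LOC618696 was 0.50 without control 17. From the lowest to the highest of the 14 animals TF spanned 8.29-fold, RBP4 3.01-fold and CLU 1.60-fold, and without control 17 TF spanned 2.90-fold.

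Most pairs of members were positively correlated across animals. Over the 14 animals without prednisolone 30, 27 of the 28 pairs of the 8 named genes (CTSV included) had a positive Pearson r, with a median of 0.40. All pairs share their arrays and their scaling, and the share of positive pairs among other genes is not given here. Of the 28, 2 passed an adjusted permutation p of 0.05 over the 28 pairs, and by Spearman's rho 0 did. CTSV and AQP8 gave r = 0.77 (adjusted permutation p = 0.0213, rho = 0.73, adjusted permutation p = 0.0904), r = 0.83 without the 2 animals farthest from the CTSV median, 0.75 within the controls, 0.93 within the treated animals and 0.82 within the scan day shared by both groups, and the adjusted permutation p was 0.0559 without control 17. CTSL and TFPI2 gave r = 0.83 (adjusted permutation p = 0.00728, rho = 0.63, adjusted permutation p = 0.132). The 2 animals farthest from the CTSL median were control 23 and prednisolone 29, the slide mates that were lowest in both genes, and without them r was 0.68 (adjusted permutation p = 0.109). That pair also rests on a TFPI2 probe near background. CLU had r between -0.04 and 0.40 to the others, but this depended on the scaling. In the authors' deposited table CLU had r = 0.85 with AQP8, 0.77 with DHH and 0.73 with CTSV, and with quantile scaling 0.69, 0.56 and 0.76.

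**Figure D3:**
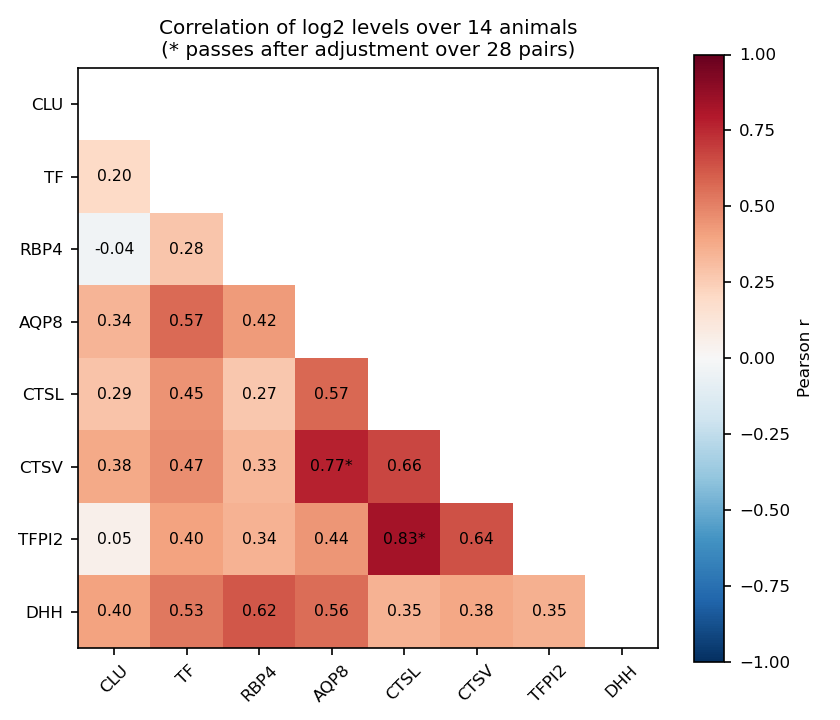
Pearson r of log2 level between each pair of the 8 named genes over 14 animals, printed in each cell and coloured from -1 in blue to 1 in red. All cells but CLU with RBP4 (-0.04) are above 0, and the starred pairs, CTSV with AQP8 (0.77) and CTSL with TFPI2 (0.83), passed after adjustment over the 28 pairs.

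AQP8, DHH and RBP4 correlated with the mean of other Sertoli cell genes across animals. The share of all genes that do so is not given here, so whether this is particular to them was not tested. Against the mean of 15 Sertoli markers that hold no member, AQP8 had r = 0.76 (adjusted permutation p = 0.00901, rho = 0.69), DHH r = 0.72 (adjusted permutation p = 0.00901, rho = 0.74) and RBP4 r = 0.70 (adjusted permutation p = 0.00901, rho = 0.70), each with an adjusted permutation p of 0.0212 by rho over 8 comparisons. Without prednisolone 27 and control 23, the highest and lowest animals by that mean, r was 0.77 for DHH and 0.73 for RBP4. For AQP8 it was 0.47 (adjusted permutation p = 0.242). Leaving out the extreme animals also narrows the range of the mean, so this cannot tell whether the AQP8 relation rested on them. For AQP8 r was 0.76 without control 17 and 0.85 in the authors' deposited table. Within the controls, the treated animals and the shared scan day r was 0.94, 0.68 and 0.63 for AQP8, 0.57, 0.94 and 0.53 for DHH, and 0.87, 0.69 and 0.76 for RBP4. The other 5 did not pass: r was 0.52 for CTSV, 0.45 for CTSL, 0.40 for TFPI2, 0.32 for TF and 0.20 for CLU. In the authors' deposited table CLU did pass, with r = 0.71 (adjusted permutation p = 0.0157), and so did CTSV, with r = 0.58 (adjusted permutation p = 0.0401). The marker mean itself was -0.05 ± 0.18 (SD, n = 7) in the controls and 0.05 ± 0.26 (SD, n = 7) in the treated animals without prednisolone 30.

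**Figure D4:**
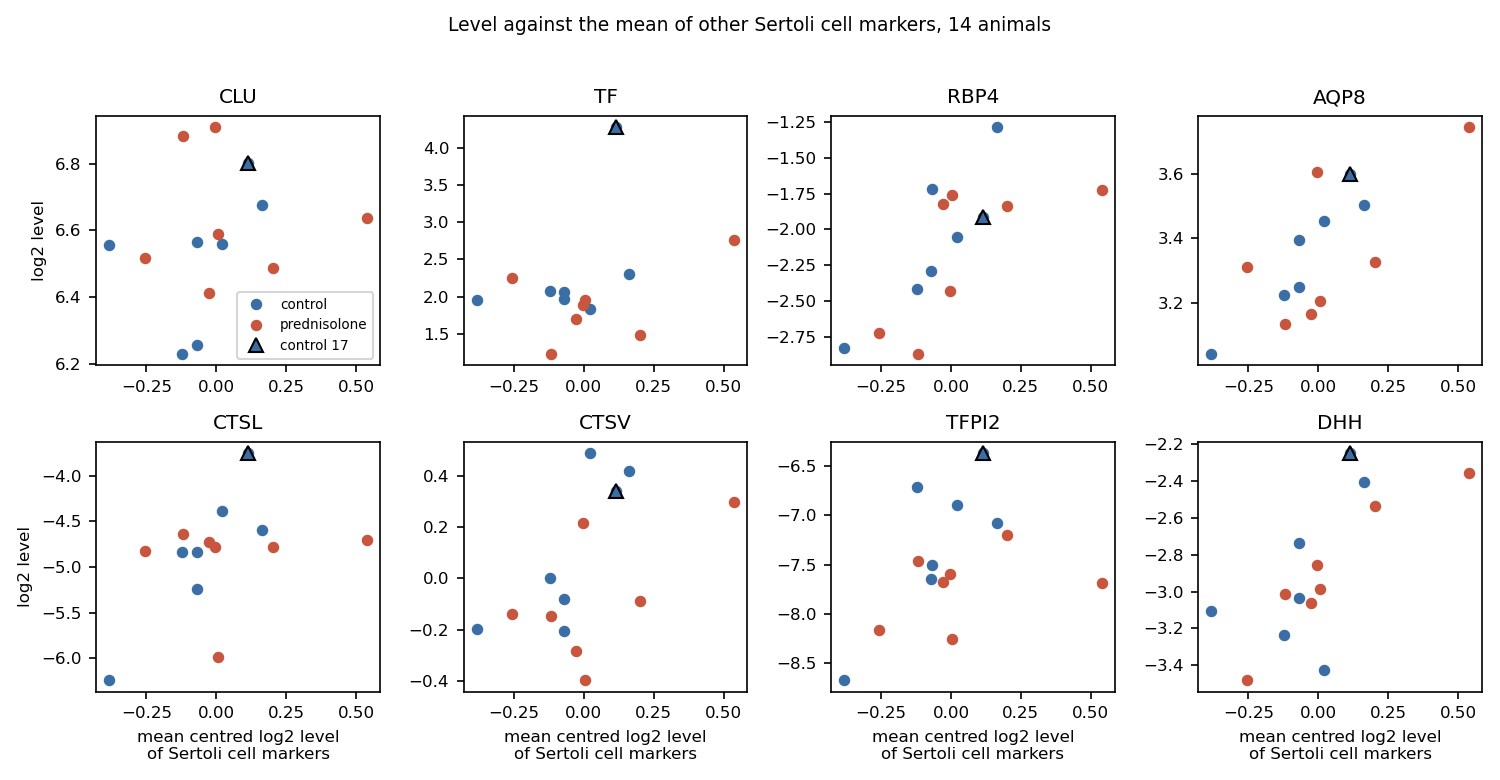
Log2 level of each gene (vertical axis) against the mean of 15 Sertoli cell markers, each centred on its own average (horizontal axis, log2), for 14 animals, controls in blue and prednisolone animals in red, with control 17 as a triangle. RBP4, AQP8 and DHH rise with the marker mean (r = 0.70, 0.76 and 0.72), whereas r is 0.20 for CLU and 0.32 for TF at this scaling (0.71 and 0.48 in the authors' deposited table).

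Each gene had its own nearest neighbours in pattern among the 13324 genes tested, given as a description over the same 14 animals. TF was most like PYCARD, an inflammasome adaptor (r = 0.97, and 0.93 without control 17), S100A14 (0.96, and 0.85) and BOLA-DRA, a class II histocompatibility chain of antigen-presenting cells (0.96, and 0.82). RBP4 was most like SNCG (0.91), CCR7 (0.91) and TAPBP (0.85). AQP8 was most like AGTR1, the angiotensin II receptor (0.91), SERP1 (0.90) and SMARCA1 (0.90). DHH was most like SH3BP4 (0.92), BAMBI (0.91), a decoy receptor of the TGF-beta family, and RAB30 (0.91). CLU was most like RNF111 (0.88), TLNRD1 (0.88) and SLC25A11 (0.87), and CTSV like RAP1B (0.91), NUDT11 (0.89) and IDI1 (0.89). CTSL was most like DNAJB14 (0.92), APPL (0.91) and MDH1 (0.90), and TFPI2 like IGF2R (0.88), SFRP1 (0.87) and RSBN1L (0.86). No gene was among the 3 nearest of more than 1 of them.

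The genes that act with the members gave no change that passed the test either. In the hedgehog pathway 0 of 14 tested genes passed in either direction. Of these, 12 were higher in prednisolone by any amount, with a median of 0.16, but without prednisolone 30 it was 8 of 14 and a median of 0.0100. SMO, the signal transducer released when a hedgehog ligand binds, differed by 0.62 (limma adjusted p = 0.885) and by 0.30 without prednisolone 30. PTCH1, the hedgehog receptor and a target of the pathway, differed by 0.26, and DISP1, which releases the ligand from the secreting cell, by 0.22 (0.079 without control 17 and prednisolone 30).

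For the carriers, 0 of 14 tested genes of iron handling passed, with a median of -0.080 and 6 higher, but a median of 0.034 and 10 higher without prednisolone 30. The nearest to the threshold were HAMP, the iron hormone hepcidin, at 0.64, TFR2, a transferrin receptor, at 0.44, and IREB2, an iron sensor, at -0.14 (limma adjusted p = 0.885 each). Without prednisolone 30, HAMP differed by 0.30 and TFR2 by 0.14. TFRC, the main receptor for transferrin, ran from -0.85 to -0.15 in the controls and from -1.95 to -0.07 in the treated animals. The -1.95 was prednisolone 30. The TFRC difference was -0.17 with all animals and 0.0020 without prednisolone 30. In retinol carriage 0 of 9 passed, with 5 higher and a median of 0.085 (0.015 without prednisolone 30). RBP7 differed by 0.40 (0.24 without control 17 and prednisolone 30) and RBP2 by 0.15. Of the clusterin receptors and chaperones 0 of 7 passed, with a median of -0.065 (-0.00054 without prednisolone 30). LRP8, LRP1 and VLDLR, which take up lipoproteins and clusterin complexes, differed by 0.19, -0.58 and 0.31. LRP1 stood at 2.26 in control 17 and -3.26 in prednisolone 30, and its difference was -0.23 without prednisolone 30 and 0.18 without both. Those of LRP8 and VLDLR were 0.052 and 0.51 without both.

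Among cathepsins and their cystatin inhibitors 0 of 18 passed. There were 13 genes lower in prednisolone, CTSV among them, and a median of -0.11, but 10 of 18 were higher without prednisolone 30. CTSS, the cathepsin of antigen-presenting cells, differed by -0.55, and LGMN, an asparagine-specific protease, by -0.42. Without prednisolone 30 and control 17 these were -0.44 and -0.098. Of the Kunitz inhibitors and plasminogen activation genes 0 of 18 passed, with a median of 0.12 and, without prednisolone 30, -0.0077. F7 differed by 0.30, SERPINE2, an inhibitor of plasminogen activators, by 0.25, and SPINT2 by 0.25, but by 0.088, -0.0028 and 0.12 without prednisolone 30, and SPINT2 by -0.032 without control 17 as well. Of the other aquaporins 0 of 7 passed, with AQP2 at a difference of 0.36, AQP1 at -0.25 and AQP11 at -0.10. Without prednisolone 30 AQP2 was at 0.21 and AQP1 at -0.062, and without control 17 as well AQP1 was at 0.041 and AQP11 at -0.17. Of the BEX and TCEAL list, which also holds LMO2 and LDB1 from outside that family, 0 of 8 passed. TCEAL1 was at -0.21, BEX1 at -0.29 and LMO2 at -0.19. Without prednisolone 30 LMO2 turned to 0.039, and without control 17 as well LMO2 was at 0.23 and TCEAL1 at 0.028. Of other proteins that Sertoli cells secrete 0 of 11 passed, with IGFBP3 at -0.40, MIF at 0.50 and GRN at 0.25 (-0.25, 0.56 and 0.12 without prednisolone 30). For DISP1, RBP7, MIF and GRN all 8 treated animals lay above the control mean, but the ranges of the groups overlapped for each. The share of all genes with this pattern is not given here. Control 17 was the lowest control for DISP1 (-0.73) and RBP7 (-3.47), and the lowest control for MIF stood at -2.35. Over these 9 lists the smallest adjusted p in limma was 0.885, and no unadjusted p fell under 0.05 (0 genes).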

How the data were processed

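Single-colour Agilent arrays were read with Feature Extraction 9.5.1.1, per the file headers. The intensity column used is the processed signal deposited by the authors, background-subtracted and detrended, per the labels. A second table of intensity values deposited by the authors served as an alternative. The sources used here do not give its normalization. R 2.11.1 is named in the submitters' processing notes. Here log2 was taken, each array's 75th percentile was subtracted, outlier spots were left out and the spots of a probe were averaged. A probe was tested if well above background on at least 7 arrays of 1 group, which kept 17411 of 21475. A gene was read through its brightest probe. Groups were compared with limma 3.58.1 (R 4.3.3; lmFit and eBayes, two-sided, Benjamini-Hochberg over all tested probes, threshold 0.05), tested on simulated data, and by two-sided exact permutation of the group labels. Correlations used 100000 permutations. Marker means average genes centred over the 14 arrays other than prednisolone 30. All members are named. From each pathway list the 3 genes with the smallest p are named, except 1 gene that is not reported here, and a few others (TFRC, TTR, STRA6, TFPI, SERPINF2, PAX8 and KRT8) were chosen after their values were seen. Names were taken from the files or, by accession and gene number, from a RefSeq table of the ARS-UCD2.0 assembly. The members and lists were chosen with earlier results of these data known. Alternatives covered scaling, background correction, filters, batches and left-out animals. The number of arrays limits the precision.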

Additional observations from a re-analysis of the deposited data

Results flagged for a closer look

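Of 20 groups of values examined for a lone animal (10 probes in each group), 5 held an animal farther from the rest than Dixon's 95% limit allows, where chance gives about 1. In the controls TF was 4.28 in control 17. In the treated animals prednisolone 30 gave the lone value for CLU (4.91), CTSV (-3.39) and TFPI2 (-2.52). The last was prednisolone 29, with CTSL at -5.99.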

How the results depend on the processing

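No gene passed in any of 35 alternatives. In those that kept more than 1 animal in each group, 79 to 1092 genes had an unadjusted limma p under 0.05. Of the recomputed differences, 267 kept their direction and 41 changed sign, none of them past the threshold; the cause was not tested. CLU turned to 0.079 with array weights, 0.058 in the authors' deposited table without prednisolone 30, 0.099 in the shared scan day without control 17 and prednisolone 30, and 0.16 without these 2 animals. In the last 2 settings AQP8 was 0.041 and 0.045, and within slide 4 it was 0.088. CTSL turned to -0.0081 with median scaling, -0.44 with quantile scaling, -0.096 in the deposited table, -0.084 there without prednisolone 30, -0.68 within slide 1 and -0.36 there without control 17. DHH turned to 0.11 with normexp, 0.38 in the shared scan day and 0.092 overall without both animals, 0.037 within slide 1 and 0.63 there without control 17. RBP4 turned to 0.093 with slide as a block, 0.30 in the shared scan day without both animals, 0.16 within slide 1 and 0.23 there without control 17. LOC513351 turned to 0.19 with normexp, 0.30 with slide as a block, 0.026 within or blocked by scan day, 0.41 within slide 1, 0.17 there without control 17, and 0.14 within slide 4. LOC618696 turned to -0.50 within slide 4. Slide 1 held controls 17 and 18 and prednisolone 25 and 26, and slide 4 held control 23 and prednisolone 29 and 30. Differences within slide 4, and within slide 1 without control 17, thus rest on 1 control. Those in the shared scan day without both animals rest on controls 18 and 23. The 3 settings named with the deposited table or within a scan day or slide after leaving out an animal were chosen after seeing the data.

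Leaving out 1 animal at a time gave -0.17 to 0.11 for CLU, -0.61 to -0.16 for TF, -0.44 to -0.093 for RBP4, -0.18 to 0.24 for CTSL, -0.71 to -0.19 for CTSV, -0.26 to -0.014 for DHH, -0.095 to 0.0074 for AQP8, 0.45 to 0.95 for LOC618696 and -0.24 to 0.18 for LOC513351. The number of correlated pairs, 2, became 7 with all 15 arrays, 1 without control 17 and prednisolone 30, 1 without the 2 farthest animals, 8 with quantile scaling and 13 in the deposited table. CTSV with AQP8 passed in 4 of 6 alternatives and CTSL with TFPI2 in 5 of 6. The number correlated with the Sertoli markers, 3, was 5 in the deposited table. DHH and RBP4 passed in 6 of 6 alternatives and AQP8 in 5. No paired analysis was possible because the groups share no replicate numbers.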

Other observations

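Of the 9 retinol carriage genes tested, 4 were highest and 4 lowest in control 17. TTR and STRA6 were far above the other animals there, though RBP4 was not. TTR, transthyretin, which carries retinol-binding protein in blood, was at 0.21 there, against -5.12 to -4.35 in the other 13 animals without prednisolone 30. STRA6, the receptor that takes retinol from RBP4, was at 0.55 against -2.51 to -1.22. RBP4 itself was at -1.92, inside the range of -2.87 to -1.28. Of the duct epithelium markers, PAX8 was at 0.36 against -3.66 at most in the others, and KRT8 at 2.58 against 0.14 at most.

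The same animal was the highest of 14 for 6 of 8 genes of the BEX and TCEAL list, LMO2 among them. For other Sertoli secreted proteins this was 6 of 11 and for cathepsins and cystatins 9 of 18, against 19.5% of all genes. For clusterin receptors and chaperones it was 3 of 7, and for Kunitz and plasminogen genes 6 of 18. But control 17 was highest for only 3 of 14 hedgehog genes, 3 of 14 iron handling genes and 1 of 7 other aquaporins. It was the lowest for 4 of 9 retinol carriage genes, against 26.6% of all genes, and the highest for another 4. How much of this comes with its myoid, endothelial and duct markers was not tested.

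Of the 104 genes of the pathway lists, 3 (2.88%) had an unadjusted p under 0.05 in limma once prednisolone 30 was left out, against 571 (4.29%) of all genes, so the listed share was not above the background. These were CTSS (-0.70), TFPI, the inhibitor related to TFPI2 (0.40), and SERPINF2, the plasmin inhibitor (-0.41). Without control 17 as well the differences were -0.44, 0.36 and -0.28. With all 15 animals they were -0.55, 0.19 and 0.14, so SERPINF2 changed sign. In the limma fit without prednisolone 30 the smallest adjusted p over all genes was 0.964.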
